A study of Mus musculus with 4 samples.

Results

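The genes described here are those whose symbols begin with Mrpl or Mrps and a digit, the protein components of the mitochondrial ribosome. The pattern matched 77 of the 24421 gene columns, 48 named for the large subunit and 29 for the small subunit. All 77 were found in the GENCODE vM21 annotation of GRCm38, spread over 17 chromosomes.

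Mitochondria carry their own ribosome, which translates the few messages of the mitochondrial genome into membrane proteins of the respiratory chain and ATP synthase. Its RNAs are transcribed inside the organelle, whereas all of its proteins are encoded in the nucleus, made on cytosolic ribosomes and imported. Some of these proteins descend from bacterial ribosomal proteins and others are found only in mitochondria. The symbols do not follow the structure throughout: Mrps30 and Mrps18a are built into the large subunit of the mammalian mitoribosome, and Mrps36 is now known as a subunit of the 2-oxoglutarate dehydrogenase complex rather than of the ribosome.

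The data were UMI counts, that is counts of tagged transcripts, per gene and cell in 4 single-cell libraries from mice, of cells sorted for CD138+ B220-, the surface profile of plasma cells. The myeloma libraries, called VQ here, carry the genotype V{kappa}*MYC with Nras LSL Q61R/+ and IgG1-Cre on a C57/BL6 background. They hold donor-derived cells taken from recipients, and their titles read VQ-D2, whose D2 the labels do not explain. VQ bone marrow had 2 libraries and VQ lymph node had 1. The control was 1 library of plasma cells from age-matched wild-type C57/BL6 bone marrow. A Cre placed at the IgG1 locus acts in B cells that have switched on that locus, and the V{kappa}*MYC transgene puts MYC under immunoglobulin kappa elements. Transcript ends were counted at 3′ ends, so levels can be set side by side between genes without correction for length.

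As chosen for the comparison, VQ cells had under 5% of their UMIs in Jchain, the joining chain of secreted polymeric antibody, and wild-type cells had at least 5%. This kept 226 of 245 and 170 of 188 cells of VQ bone marrow 1 and 2, 185 of 185 cells of VQ lymph node and 106 of 163 wild-type cells, or 687 of 781 in all. No cell barcode was shared between libraries (0). The kept cells held 1039024, 441973 and 799731 UMIs without Jchain in the VQ libraries, in that order, and 162471 in the wild-type library, so that wild-type values carry the largest counting error. Cell medians were 4700, 2646 and 3978 UMIs in the VQ libraries and 1998.5 in the wild-type library. Summed levels of 13 plasma cell markers other than Jchain were 12500 to 13623 CPM (counts scaled to a common total of UMIs without Jchain) in the VQ libraries and 27863 CPM in the wild-type library, and all 13 were detected there. In the VQ libraries every one of them except Cd38 was detected in each library, and Cd38 was at 0 in VQ bone marrow 2 and VQ lymph node. Myc had 1249 and 1456 CPM in VQ bone marrow and 1409 CPM in VQ lymph node, against 43.4 CPM in wild-type cells.

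Both subunits took a larger share of the transcripts in VQ cells. Large subunit genes made up 0.602% of the UMIs without Jchain in VQ bone marrow 1 (95% exact binomial interval 0.588 to 0.617), 0.589% in VQ bone marrow 2 (0.567 to 0.612) and 0.630% in VQ lymph node (0.613 to 0.648), against 0.404% in wild-type cells (0.374 to 0.436). Small subunit genes made up 0.257% (0.247 to 0.267), 0.249% (0.234 to 0.264) and 0.264% (0.253 to 0.276) in the same VQ libraries, against 0.169% in wild-type cells (0.149 to 0.190). No VQ interval overlapped the wild-type interval in either subunit. These intervals cover counting error only, and no test was made, since the genes are not replicates.

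Summed by symbol, the balance between the subunits was alike in all 4 libraries within counting error. The UMIs of large subunit genes were 2.34 times those of small subunit genes in VQ bone marrow 1 (interval 2.24 to 2.45), 2.37 times in VQ bone marrow 2 (2.21 to 2.54) and 2.38 times in VQ lymph node (2.27 to 2.51), against 2.39 times in wild-type cells (2.08 to 2.77). The 4 intervals overlap. Mrpl57 alone gave 84 of the 656 large subunit UMIs of the wild-type library. It gave 220 of 6258, 82 of 2605 and 155 of 5041 in the VQ libraries, so the wild-type ratio rests in part on this gene. Mrps30, Mrps18a and Mrps36 are summed here with the small subunit.

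Cells on the other side of the Jchain limit were summed apart. The 57 wild-type cells under 5% Jchain had 0.360% of their UMIs in large subunit genes (0.328 to 0.393) and 0.161% in small subunit genes (0.140 to 0.183), and both intervals overlap those of the wild-type cells above that limit. The 19 cells of VQ bone marrow 1 at or above 5% Jchain had 0.398% in large subunit genes (0.309 to 0.504) and 0.240% in small subunit genes (0.172 to 0.325). The 18 such cells of VQ bone marrow 2 had 0.283% (0.191 to 0.404) and 0.226% (0.145 to 0.337). These few VQ cells were shallow, with medians of 1064 and 699.5 UMIs, and few cells lay near the limit: 3, 2 and 0 cells of the VQ libraries and 5 wild-type cells had 4 to 6% Jchain.

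Proliferation moved with the same groups. A UMI of any of 16 proliferation genes was found in 188 of 226, 130 of 170 and 145 of 185 cells used of the VQ libraries and in 11 of 106 wild-type cells used. The summed level of these 16 genes was 1877, 1747 and 1708 CPM in the VQ libraries and 73.9 CPM in the wild-type library, where 11 of the 16 were at 0. In the cells without such a UMI, large subunit genes made up 0.469% (0.422 to 0.520), 0.532% (0.469 to 0.601) and 0.573% (0.528 to 0.622) in VQ bone marrow 1, VQ bone marrow 2 and VQ lymph node, against 0.405% in wild-type cells (0.373 to 0.440). Small subunit genes made up 0.209%, 0.217% and 0.221% in these VQ cells, against 0.172% in wild-type cells (0.152 to 0.195). Each VQ share was still above the wild-type share. For large subunit genes the interval of VQ bone marrow 1 overlapped that of the wild-type library, and for small subunit genes the lower bounds of 0.178, 0.178 and 0.193 in the VQ libraries put all 3 intervals in overlap with it. The VQ cells left for this were 38, 40 and 40, with 76905, 48291 and 100799 UMIs in all, so they were also the shallower cells.

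**Figure D1:**
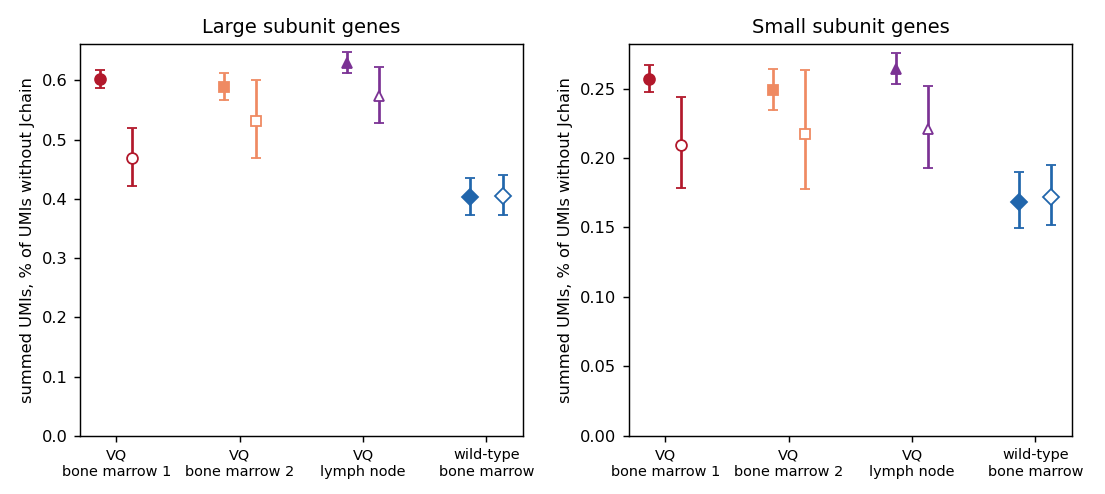
Summed UMIs of large (left) and small (right) subunit genes as a percentage of all UMIs without Jchain, by library, with 95% exact binomial intervals. Filled symbols are all cells used and open symbols are cells without a UMI of a proliferation gene. Filled VQ symbols lie between 0.589% and 0.630% for the large subunit, against 0.404% in wild-type cells, and open VQ symbols lie between 0.469% and 0.573%, against 0.405% in wild-type cells.

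The difference was also seen cell by cell. When each cell was thinned to 1000 UMIs, the median cell of each VQ library held 8 mitoribosomal UMIs (interquartile range 6 to 10 in each), against 6 in wild-type cells (4 to 7). Means were 8.39 and 8.49 UMIs in VQ bone marrow 1 and 2 and 8.53 UMIs in VQ lymph node, against 5.77 UMIs in wild-type cells. The distributions overlapped widely. Thinning left out 22, 33 and 14 VQ cells and 24 wild-type cells that were too shallow. Without thinning the median cell held 39, 22 and 34 such UMIs in the VQ libraries, against 8 in wild-type cells, at median depths of 4682, 2625.5 and 3937 UMIs against 1647.5 UMIs.

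**Figure D2:**
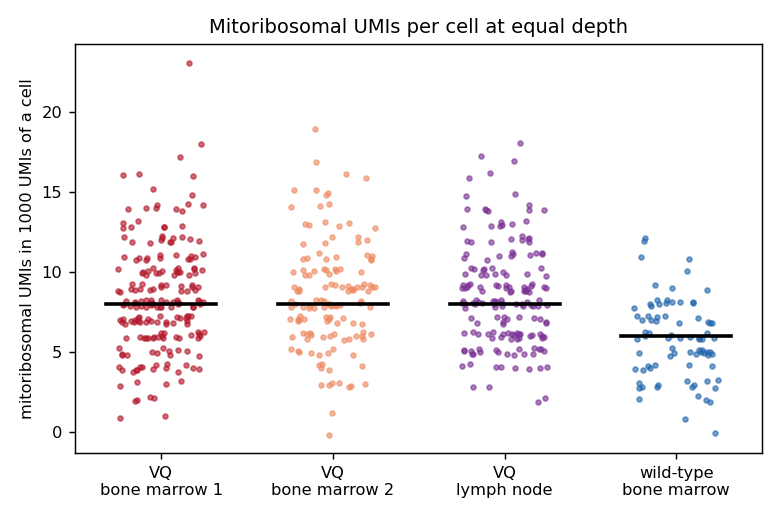
Mitoribosomal UMIs in each cell after thinning to 1000 UMIs, by library. Each point is a cell, shifted at random by up to 0.25 of a UMI so that points do not hide each other, and black lines are medians, which stand at 8 in the 3 VQ libraries and at 6 in the wild-type library.

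Gene by gene, 73 of the 77 passed the filter on low counts (47 of 48 large and 26 of 29 small subunit genes) and were tested among 8414 genes with edgeR's quasi-likelihood test on sums per library, with Benjamini-Hochberg adjustment over all tested genes and a threshold of 0.05. The 4 untested genes had few UMIs in every library. In VQ bone marrow 1, VQ bone marrow 2, VQ lymph node and wild-type cells Mrpl23 had 6, 2, 6 and 1 UMIs, Mrps18b had 2, 3, 2 and 1, Mrps33 had 8, 1, 7 and 1, and Mrps36 had 3, 1, 6 and 4. The spread between replicates comes from the pair of VQ bone marrow libraries alone. The fit takes the same spread for the lymph node and wild-type libraries, which have no replicate, and the labels do not say whether the pair came from separate animals, so each p measures a spread that may be technical. The CPM of single genes are scaled by TMM factors without Jchain, marker sums are not, and the SE of a log2 fold change is computed back from the test's F statistic.

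In bone marrow, VQ against wild-type cells, 15 of 47 large subunit genes rose and 1 fell, and 7 of 26 small subunit genes rose and 0 fell. Over all tested genes 29.3% were called, 17% higher and 12.3% lower. The median log2 fold change was 0.77 for large subunit genes (interquartile range 0.03 to 1.21) and 0.83 for small subunit genes (0.25 to 1.35), against 0.19 over all tested genes. Putting genes at 0 in the wild-type library at the bound that 3 counts allow gives medians of 0.77, 0.77 and 0.06 for these sets. At an unadjusted p under 0.05, 22 large subunit genes were higher and 1 lower, and 11 small subunit genes were higher and 0 lower. Of the 73 tested genes, 52 had all 3 VQ libraries above the wild-type library and 7 had all 3 below it, against 47.1% and 37.2% of all tested genes. In each of the 22 genes called higher all 3 VQ values lay above the wild-type value. The call used the VQ bone marrow and wild-type values themselves, so this order adds no support to it. These calls depend on the tool, since DESeq2 called only Mrpl57 among the 73 genes and 5.75% of all genes. They were also lost when cells with a proliferation UMI were left out, where 15.4% of 2752 genes were called. Among the called genes at least Mrpl2, Mrpl19, Mrpl45, Mrpl47, Mrps6 and Mrps31 failed the low-count filter there and were not retested. No call was left when sums were thinned to the wild-type depth, where 0 of 4890 genes were called. Mrps6 and Mrps31 were not retested in that setting. Thinned, the log2 fold change was 1.83 for Mrpl35 and -1.31 for Mrpl57. It fell from 1.76 to 1.05 for Mrps9 and from 1.33 to 0.89 for Mrps15, and the median of each subunit also fell.

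**Figure D3:**
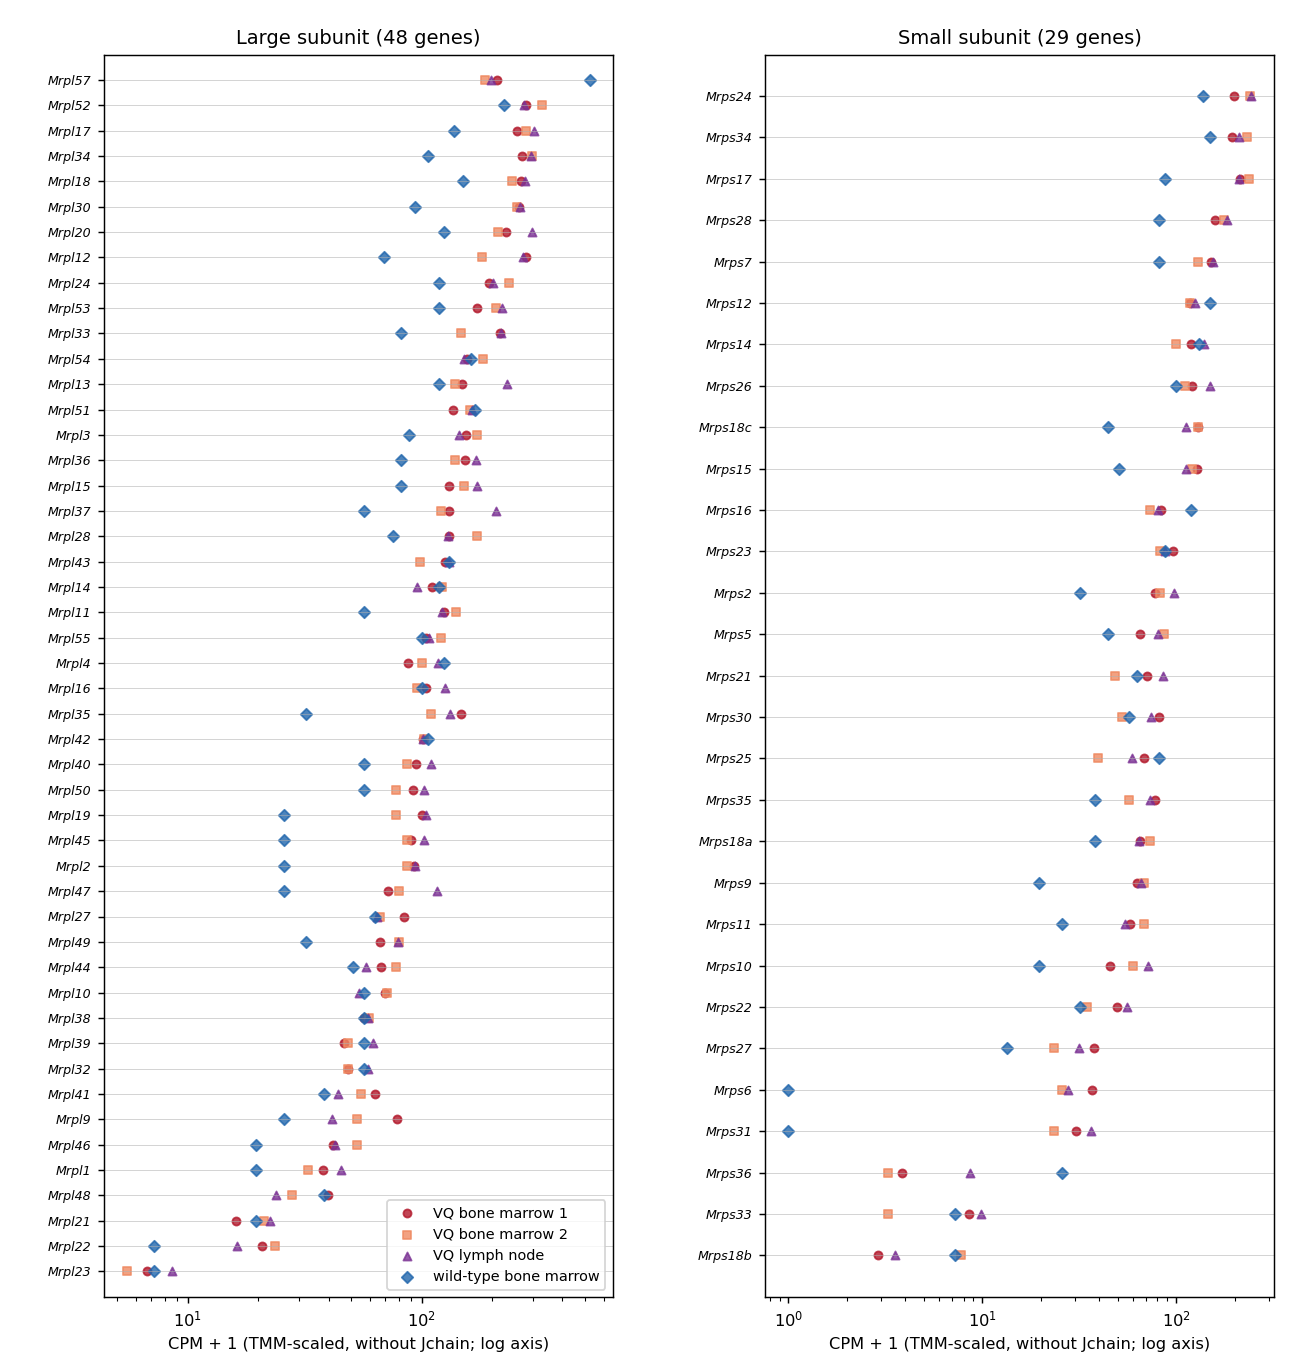
Level of each of the 77 genes in each library on a log axis, as TMM-scaled CPM without Jchain plus 1, large subunit left and small subunit right, ordered by mean level. In most rows the blue diamond of the wild-type library lies left of the 3 VQ symbols. Mrpl57 in the top row is the reverse, with 208, 185 and 196 CPM in the VQ libraries and 521 CPM in wild-type cells.

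Promoter windows of 5 of these genes are given first, because the genes differ in direction and in the motifs found. Mrpl35 had the largest rise among genes with wild-type UMIs and holds none of the motifs searched, Mrpl2, Mrpl37 and Mrps18c rose and hold the E-box, and Mrpl57 fell and holds the other motifs. Each window is RefSeq's, build GRCm38.p6, from 250 bases before to 50 bases after an annotated start. It lies at chr6:71823735-71824034 (minus strand) for Mrpl35, chr17:46645971-46646270 (plus strand) for Mrpl2, chr4:107066817-107067116 (minus strand) for Mrpl37, chr5:100798509-100798808 (plus strand) for Mrps18c and chr14:57825989-57826288 (plus strand) for Mrpl57. Mrpl2 has 3 listed starts, of which the first is shown. Sequences run 5′ to 3′, and capitals mark CACGTG, the E-box that MYC and many other factors bind, the palindromic core of the NRF1 motif, and CCGGAAG, an ETS motif, each searched on its own on both strands.
Mrpl35: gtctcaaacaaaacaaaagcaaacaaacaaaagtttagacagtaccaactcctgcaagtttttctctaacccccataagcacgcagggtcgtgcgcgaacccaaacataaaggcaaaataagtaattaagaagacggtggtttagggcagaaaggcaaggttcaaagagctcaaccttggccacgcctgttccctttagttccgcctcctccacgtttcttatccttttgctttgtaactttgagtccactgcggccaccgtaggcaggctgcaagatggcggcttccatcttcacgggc
Mrpl2: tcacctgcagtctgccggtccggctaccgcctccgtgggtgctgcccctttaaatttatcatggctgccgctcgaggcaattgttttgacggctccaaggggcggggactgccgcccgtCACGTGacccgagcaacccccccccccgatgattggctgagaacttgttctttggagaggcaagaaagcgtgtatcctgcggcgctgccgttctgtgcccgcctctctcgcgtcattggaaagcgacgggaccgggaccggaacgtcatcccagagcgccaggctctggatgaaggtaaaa
Mrpl37: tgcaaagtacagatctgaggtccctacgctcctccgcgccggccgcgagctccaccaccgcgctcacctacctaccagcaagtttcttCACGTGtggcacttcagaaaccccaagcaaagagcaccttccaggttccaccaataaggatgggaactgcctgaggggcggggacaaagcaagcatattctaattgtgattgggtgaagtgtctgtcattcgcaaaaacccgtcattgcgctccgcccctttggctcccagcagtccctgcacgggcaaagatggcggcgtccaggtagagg
Mrps18c: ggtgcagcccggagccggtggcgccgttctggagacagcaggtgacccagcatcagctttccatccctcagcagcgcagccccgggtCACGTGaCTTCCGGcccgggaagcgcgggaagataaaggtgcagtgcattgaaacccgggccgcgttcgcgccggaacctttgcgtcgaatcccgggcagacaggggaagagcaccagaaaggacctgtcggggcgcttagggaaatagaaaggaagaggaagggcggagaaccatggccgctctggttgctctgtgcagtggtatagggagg
Mrpl57: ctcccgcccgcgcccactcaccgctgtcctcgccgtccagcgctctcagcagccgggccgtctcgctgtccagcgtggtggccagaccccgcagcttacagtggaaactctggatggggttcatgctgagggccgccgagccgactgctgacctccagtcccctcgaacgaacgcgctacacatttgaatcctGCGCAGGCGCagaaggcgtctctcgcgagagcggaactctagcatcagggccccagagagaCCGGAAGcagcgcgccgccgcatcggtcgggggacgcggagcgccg

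The E-box was in a window of 4 of the 20 genes called higher that have one in the RefSeq table (20%), in 1 of the 44 other tested genes (2.27%), in 12.7% of 6558 tested genes of all kinds and in 8.09% of all 27025 genes of that table. The 4 were Mrpl2, Mrpl20, Mrpl37 and Mrps18c, and the other was Mrpl36. The NRF1 motif was in 5 of the 20 (25%), in 8 of the 44 (18.2%) and in 14% of tested genes. The ETS motif was in 5 of the 20 (25%), in 18 of the 44 (40.9%) and in 24.6% of tested genes. In all, 68 of the 77 genes had a window. The E-box was in 5 of these 68 (7.35%), a smaller share than in tested genes of all kinds. The NRF1 motif was in 13 of the 68 (19.1%) and the ETS motif in 25 (36.8%). A match is only a description of these letters, and the counts are small.

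Mrpl35, a homologue of a bacterial large subunit protein encoded on chromosome 6 (71812997 to 71826969, minus strand, GRCm38), had 146 and 108 CPM in VQ bone marrow and 132 CPM in VQ lymph node, against 31.0 CPM in wild-type cells. All 3 VQ libraries were well above the wild-type library, where Mrpl35 had 5 UMIs (ratio 4.34 in bone marrow, counting interval 1.83 to 13.5). Its log2 fold change in bone marrow was 2.08 (SE 0.51, edgeR adjusted p = 0.000458), and with no limit on Jchain it was 0.79 and not called (adjusted p = 0.0544). Mrpl12, on chromosome 11 (120484613 to 120489065, plus strand), forms the stalk that receives translation factors. It had 279 and 180 CPM in VQ bone marrow and 271 CPM in VQ lymph node, against 68.3 CPM in wild-type cells. It was the highest of the 77 genes in VQ bone marrow 1, level with Mrpl52. The VQ bone marrow libraries lay apart, both above the wild-type library. It rose by a log2 of 1.80 (SE 0.37, edgeR adjusted p = 3.03e-05), while in cells without a proliferation UMI its log2 fold change was 0.22 and not called (adjusted p = 0.863). An exon of Gm16755 lies over its 3′ end on the opposite strand.

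Mrpl2, whose bacterial homologue lies at the peptidyl transferase centre, had 91.8 and 85.7 CPM in VQ bone marrow and 92.4 CPM in VQ lymph node, against 24.8 CPM in wild-type cells. It rose by a log2 of 1.84 (SE 0.58, edgeR adjusted p = 0.00925), on 4 wild-type UMIs (ratio 3.62, counting interval 1.38 to 13.5). Mrpl19, a homologue of a bacterial protein at the interface of the subunits, had 99.3 and 76.7 CPM in VQ bone marrow and 104 CPM in VQ lymph node, against 24.8 CPM in wild-type cells (log2 1.87, SE 0.58, edgeR adjusted p = 0.00782). Mrpl19 also had 4 wild-type UMIs (ratio 3.73 in bone marrow, counting interval 1.42 to 13.9). An exon of Gcfc2 overlaps its 3′ end on the opposite strand, and whether the counting used strand is not given in the sources used here.

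Mrpl45, a mitochondria-specific protein that anchors the ribosome to the inner membrane at the tunnel exit, had 88.9 and 85.7 CPM in VQ bone marrow and 101 CPM in VQ lymph node, against 24.8 CPM in wild-type cells (log2 1.81, SE 0.59, edgeR adjusted p = 0.0108). Mrpl47, whose bacterial homologue also sits at the exit, had 71.0 and 78.9 CPM in VQ bone marrow and 115 CPM in VQ lymph node, against 24.8 CPM in wild-type cells (log2 1.56, SE 0.61, edgeR adjusted p = 0.0399). Each of these wild-type values rests on 4 UMIs. Mrpl17, another homologue of a bacterial large subunit protein, was the highest of the 77 in VQ lymph node at 300.1 CPM, with 254 and 277 CPM in VQ bone marrow and 137 CPM in wild-type cells (log2 0.95, SE 0.30, edgeR adjusted p = 0.0101).

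Other homologues of bacterial proteins also rose. Mrpl30 had 260.2 and 255 CPM in VQ bone marrow and 262 CPM in VQ lymph node, against 93.1 CPM in wild-type cells (log2 1.47, SE 0.34, edgeR adjusted p = 0.000188). Mrpl34 had 268 and 295 CPM in VQ bone marrow and 292 CPM in VQ lymph node, against 106 CPM in wild-type cells (log2 1.40, SE 0.32, edgeR adjusted p = 0.000193). Mrpl33 had 215 and 147 CPM in VQ bone marrow and 217 CPM in VQ lymph node, against 80.7 CPM in wild-type cells (log2 1.22, SE 0.37, edgeR adjusted p = 0.00649). In all 3 genes the lowest VQ library was above the wild-type library. The other large subunit genes called higher were Mrpl11, Mrpl18, Mrpl20, Mrpl24 (overlapped on the opposite strand by Rrnad1) and Mrpl37. Over the 20 called genes with wild-type UMIs the log2 fold change ran between 0.78 for Mrpl18 and 2.08 for Mrpl35.

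Mrpl57 was the 1 of the 73 tested genes that was called lower. The untested Mrps36 had a ratio of 0.107 (counting interval 0.0200 to 0.576) in VQ over wild-type bone marrow cells. Mrpl57, a mitochondria-specific protein of the large subunit encoded on chromosome 14 (57826234 to 57829296, plus strand), had 208 and 185 CPM in VQ bone marrow and 196 CPM in VQ lymph node, against 521 CPM in wild-type cells. It was the most abundant mitoribosomal transcript of the wild-type library, with 84 of its 656 large subunit UMIs, and had 220, 82 and 155 UMIs in the VQ libraries. All 3 VQ libraries lay close together and below the wild-type library. Its log2 fold change in bone marrow was -1.39 (SE 0.22, edgeR adjusted p = 5.41e-08), and it was the only one of these calls that DESeq2 shared (log2 -1.47, adjusted p = 0.0159). No exon of another protein-coding or long non-coding gene overlaps its last 500 bases.

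Among small subunit genes called higher, 2 had no UMI in the wild-type cells used. Mrps6, a homologue of a bacterial platform protein, had 38 and 11 UMIs in VQ bone marrow and 21 UMIs in VQ lymph node, against 0 UMIs in wild-type cells (edgeR adjusted p = 0.0111 in bone marrow). Against a floor of 3 wild-type counts it was 1.75-fold higher in VQ bone marrow. The exact lower bound, with counting error on both sides, was 1.37-fold. Mrps31, a mitochondria-specific protein, had 31 and 10 UMIs in VQ bone marrow and 28 UMIs in VQ lymph node, against 0 UMIs in wild-type cells (edgeR adjusted p = 0.0210 in bone marrow). Against the same floor it was 1.47-fold higher in VQ bone marrow, with an exact lower bound of 1.14-fold. At the wild-type depth this floor is 18.6 CPM, so a low level in wild-type cells would not have been detectable. With no limit on Jchain, which lets all cells of each library in, the log2 fold change was 1.68 for Mrps6 (edgeR adjusted p = 0.0785) and 2.00 for Mrps31 (adjusted p = 0.0664), and neither was called.

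Mrps9, whose bacterial homologue reaches to the peptidyl transfer RNA, had 61.5 and 67.6 CPM in VQ bone marrow and 64.6 CPM in VQ lymph node, against 18.6 CPM in wild-type cells. That wild-type value is 3 UMIs, and the ratio of VQ bone marrow to wild type was 3.40 with a counting interval of 1.13 to 16.8 (edgeR adjusted p = 0.0396). With no limit on Jchain its log2 fold change was 0.57 and it was not called (edgeR adjusted p = 0.306). Mrps18c, one of several mammalian homologues of a single bacterial protein, had 129 and 129 CPM in VQ bone marrow and 111 CPM in VQ lymph node, against 43.4 CPM in wild-type cells (log2 1.56, SE 0.46, edgeR adjusted p = 0.00507). Of its relatives, Mrps18a was tested and not called, and Mrps18b was too low to test.

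Mrps17 and Mrps15, homologues of bacterial proteins that bind ribosomal RNA early in assembly, also rose. Mrps17 had 212 and 237 CPM in VQ bone marrow and 209 CPM in VQ lymph node, against 86.9 CPM in wild-type cells (log2 1.35, SE 0.35, edgeR adjusted p = 0.00119). Mrps15 had 128 and 119 CPM in VQ bone marrow and 111 CPM in VQ lymph node, against 49.7 CPM in wild-type cells (log2 1.33, SE 0.45, edgeR adjusted p = 0.0160), and with no limit on Jchain it was not called (log2 0.79, adjusted p = 0.0508). The remaining small subunit gene called higher was Mrps28, with a log2 of 1.03.

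Several abundant genes did not pass the test. Mrpl52, a mitochondria-specific protein and the highest of the 77 in VQ bone marrow 2, had 279 and 327 CPM in VQ bone marrow and 272 CPM in VQ lymph node, against 223 CPM in wild-type cells (log2 0.42, SE 0.26, edgeR adjusted p = 0.232). Mrps24, a homologue of a bacterial protein at the mRNA entry, had 199 and 239 CPM in VQ bone marrow and 242 CPM in VQ lymph node, against 137 CPM in wild-type cells (log2 0.65, SE 0.31, edgeR adjusted p = 0.105). Mrps34, needed in mice for a stable small subunit, had 193 and 230.0 CPM in VQ bone marrow and 210.2 CPM in VQ lymph node, against 149 CPM in wild-type cells (log2 0.48, SE 0.31, edgeR adjusted p = 0.244). Mrpl53, a mitochondria-specific protein, had 172 and 207 CPM in VQ bone marrow and 219 CPM in VQ lymph node, against 118 CPM in wild-type cells (log2 0.66, SE 0.33, edgeR adjusted p = 0.127). The VQ libraries were all above the wild-type library in these 4 genes, and a p that misses the threshold does not show that they did not differ. Nme3 and Gm42688 share exon sequence on the same strand with the 3′ ends of Mrps34 and Mrpl53, so those counts are uncertain.

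The genes were also grouped by descent. Of the 44 tested genes with a bacterial homologue, 19 rose and 0 fell, with a median log2 fold change of 0.93 (0.89 with the gene at 0 at its bound). Of the 29 tested mitochondria-specific genes, 3 rose and 1 fell, with a median of 0.48. This class includes Mrps18a, although its relative Mrps18c is counted with the bacterial homologues. Mrps18a was not called, but the class total and median include it. The split ran the same way in the large subunit, at 13 of 28 against 2 of 19 called higher, and in the small subunit, at 6 of 16 against 1 of 10. Subunits here go by symbol, so Mrps30 and Mrps18a count as small. Over all tested genes 17% were called higher and 12.3% lower. The classes also differed in depth, which was not tested as a part of this: the median wild-type level was 71.4 CPM for genes with a bacterial homologue and 55.9 CPM for mitochondria-specific genes, and 19 of 44 and 17 of 29 had under 10 wild-type UMIs. No test of the difference between the classes was made.

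**Figure D4:**
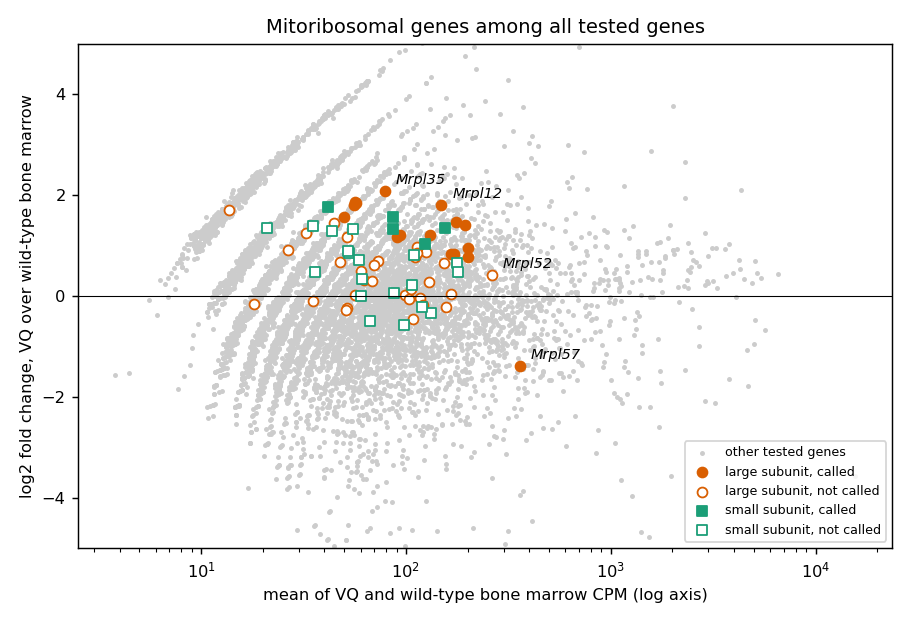
The log2 fold change of VQ over wild-type bone marrow against the mean level on a log axis, for mitoribosomal genes (colour; filled where called) and other tested genes (grey). Genes at 0 in the wild-type library are not drawn (2 mitoribosomal and 741 others), and 45 other genes lie beyond the axis limit of 5. The 20 filled symbols above 0 lie between 0.78 and 2.08, and Mrpl57 stands alone at -1.39.

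Markers of other cell types were summed in the same cells. Summed neutrophil markers were 945 and 2690 CPM in VQ bone marrow and 1.25 CPM in VQ lymph node, against 80.0 CPM in wild-type cells, with 7, 6, 1 and 4 of 7 genes detected and only Elane at 0 in VQ bone marrow 2. Leaving out cells with UMIs of at least 3 such marker genes of another type (11, 6 and 1 VQ cells and 1 wild-type cell) kept 22 of the 23 calls. Summed B cell markers were 457 and 367 CPM in VQ bone marrow and 533 CPM in VQ lymph node, against 1188 CPM in wild-type cells, with Pax5 at 0 in all 4 libraries. B cell precursor markers were at 0 in the VQ libraries and at 67.7 CPM in wild-type cells, where 4 of 7 were detected. T cell markers summed to 48.1 and 36.2 CPM in VQ bone marrow and 8.75 CPM in VQ lymph node, against 30.8 CPM in wild-type cells. Macrophage markers summed to 41.4 and 33.9 CPM in VQ bone marrow and 1.25 CPM in VQ lymph node, against 0 in wild-type cells. Erythroid markers were at 0 throughout.

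Few of the genes were called between lymph node and bone marrow myeloma cells, a share near that of all tested genes. In VQ lymph node against VQ bone marrow 2 of 47 large subunit genes rose and 0 fell, and 0 of 26 small subunit genes were called by edgeR in either direction, while 3% of all tested genes were called (1.76% higher and 1.24% lower). At an unadjusted p under 0.05, 4 large subunit genes were higher and 1 lower, and 0 small subunit genes passed in either direction. DESeq2 called 0 genes of either subunit and 0.273% of all genes. The median log2 fold change was 0.10 for large and 0.06 for small subunit genes, against -0.01 over all tested genes.

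Mrpl37, a mitochondria-specific protein of the large subunit, had 208 CPM in VQ lymph node, against 131 and 119 CPM in VQ bone marrow. Its log2 fold change was 0.71 (SE 0.20, edgeR adjusted p = 0.0204), and with 55.9 CPM in wild-type cells it was also higher in VQ bone marrow than in wild-type bone marrow (log2 1.18, SE 0.43, edgeR adjusted p = 0.0275). Mrpl13, a homologue of a bacterial large subunit protein, had 232 CPM in VQ lymph node, against 148 and 137.5 CPM in VQ bone marrow. It rose by a log2 of 0.69 (SE 0.20, edgeR adjusted p = 0.0238). With 118 CPM in wild-type cells it was not called against wild type in bone marrow (log2 0.29, SE 0.34, edgeR adjusted p = 0.566). For both genes the lymph node value stood above both bone marrow values. Each contrast shares libraries with the other, and both calls were lost with DESeq2.

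**Figure D5:**
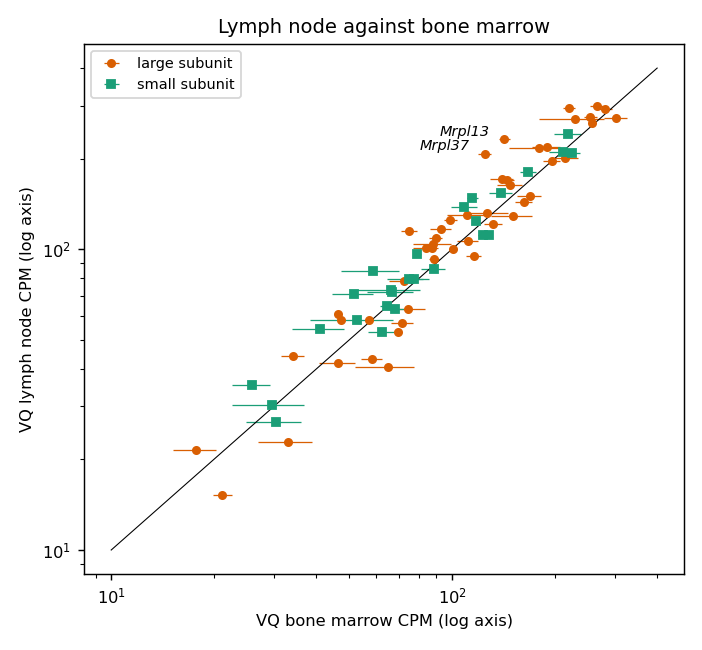
Level of each tested gene in VQ lymph node against its mean in VQ bone marrow, both as CPM on log axes, with horizontal bars spanning the pair of bone marrow libraries and a line of equal level. Points follow the line, and Mrpl37 (208 against 131 and 119 CPM) and Mrpl13 (232 against 148 and 137.5 CPM) lie above it.

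VQ lymph node against wild-type bone marrow has 1 library on each side and no test. At least a 2-fold difference was seen in 19 of 47 large subunit genes upwards and 1 downwards, and in 9 of 26 small subunit genes upwards and 0 downwards, against 23.4% upwards and 20.2% downwards of all tested genes. The largest ratios among genes with wild-type UMIs were 4.64 for Mrpl47 (counting interval 1.75 to 17.4), 4.24 for Mrpl35 (1.76 to 13.3) and 4.18 for Mrpl19 (1.57 to 15.7), named here after their values were seen. Mrpl57 had a ratio of 0.376 (0.287 to 0.497). Mrps6 was 1.43-fold and Mrps31 1.90-fold higher in VQ lymph node, against the floor of 3 wild-type counts. Their exact lower bounds were 1.06-fold and 1.45-fold.

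Genes that work with these proteins were set beside them from lists of the same pathway, in bone marrow, for VQ against wild-type cells. The background for every list is the set of all tested genes. Of these 17% were called higher and 12.3% lower, with a median log2 fold change of 0.19. Of 5 tested mitoribosomal proteins with other names, 1 rose and 0 fell (median log2 0.81). That gene was Gadd45gip1, a large subunit protein, with 236 and 201 CPM in VQ bone marrow and 257 CPM in VQ lymph node, against 124 CPM in wild-type cells (log2 0.83, SE 0.32, edgeR adjusted p = 0.0356). Dap3, a GTP-binding protein of the small subunit, had 110 and 124 CPM in VQ bone marrow and 120.3 CPM in VQ lymph node, against 55.9 CPM in wild-type cells (log2 1.04, SE 0.44, edgeR adjusted p = 0.0637).

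Of 13 tested mitochondrial translation factors 1 rose and 0 fell (median 0.36). It was Gfm1, the elongation factor that moves the ribosome along the message, with 107 and 110.5 CPM in VQ bone marrow and 97.5 CPM in VQ lymph node, against 18.6 CPM in wild-type cells, where it had 3 UMIs (ratio 5.80 in bone marrow, counting interval 1.95 to 28.4, edgeR adjusted p = 0.000352). Of 21 tested assembly factors and ribosomal RNA enzymes, 1 rose and 2 fell (median 0.91), against 17% higher and 12.3% lower over all tested genes. Noa1, a GTPase of small subunit assembly, rose with 1 wild-type UMI (ratio 10.3, counting interval 1.81 to 411, edgeR adjusted p = 0.00258). Ngrn, which acts on the large subunit RNA, fell to 32.2 and 38.3 CPM in VQ bone marrow, against 112 CPM in wild-type cells (log2 -1.70, SE 0.45, edgeR adjusted p = 0.00160). Mterf3, a factor of large subunit assembly, had 30.3 and 38.3 CPM in VQ bone marrow, against 86.9 CPM in wild-type cells (log2 -1.39, SE 0.50, edgeR adjusted p = 0.0229).

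The transfer RNA charging list had 5 of 18 tested genes higher and 0 lower (median 0.92, or 0.63 with genes at 0 at their bound). Gatc, of the enzyme that completes glutaminyl transfer RNA, and Tars2, the threonyl enzyme, rested on 1 and 2 wild-type UMIs (ratios 7.95, counting interval 1.38 to 318, and 6.50, counting interval 1.76 to 54.2). Iars2, the isoleucyl enzyme, rose by a log2 of 1.74 (SE 0.60, edgeR adjusted p = 0.0177), on 4 wild-type UMIs (ratio 3.36, counting interval 1.28 to 12.5). The remaining called genes of this list were Kars (log2 1.01, SE 0.29, edgeR adjusted p = 0.0041) and Gars (log2 0.71, SE 0.28, edgeR adjusted p = 0.0427), its most abundant genes. Kars and Gars encode the cytosolic as well as the mitochondrial enzyme, and their counts do not separate these forms. Their rise is therefore not specific to mitochondria. Of 14 tested genes of mitochondrial DNA transcription and RNA handling, 4 rose and 0 fell (median 0.86, or 0.69 at the bound). Polrmt, the mitochondrial RNA polymerase, and Lrpprc, which stabilises mitochondrial messages, had 1 and 3 wild-type UMIs (ratios 6.23, counting interval 1.07 to 250.2, and 3.79, counting interval 1.26 to 18.7). Slirp, the partner of Lrpprc, rose by a log2 of 1.08 (SE 0.40, edgeR adjusted p = 0.0295).

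Of 7 tested inner membrane insertion and quality control genes, 2 rose and 0 fell (median 0.75). Phb2, a prohibitin, had 371 and 469 CPM in VQ bone marrow and 465 CPM in VQ lymph node, against 106 CPM in wild-type cells (log2 1.97, SE 0.30, edgeR adjusted p = 1.27e-08). Afg3l2, a protease that matures a large subunit protein, had 3 wild-type UMIs (ratio 4.26, counting interval 1.42 to 20.9, edgeR adjusted p = 0.00791). Cytosolic ribosomal proteins, for comparison, had 45 of 75 tested genes higher and 2 lower, with a median log2 fold change of 0.53. Most of these genes had many more UMIs than mitoribosomal genes, which makes a call easier. Their count of calls is therefore not comparable with the others. No column held a transcript of the mitochondrial genome itself (0), so the RNAs that these proteins work on were not measured here.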

How the data were processed

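The members and the comparison lists were chosen with earlier results of these data known. Cells were isolated with the Bio-Rad ddSEQ system and libraries made with the SureCell WTA 3′ kit, per the labels' protocols. The authors deposited raw UMI counts per gene and cell, unscaled. Per the submitters' processing notes the genome was mm10, and the aligner, counter and use of strand are not given in the sources used here. Counts of the cells used were summed per library without Jchain and fitted with edgeR 4.0.16 (R 4.3.3; TMM, filterByExpr, quasi-likelihood test, 3 group means, 8414 genes, 1 residual degree of freedom, common coefficient of variation 0.0926). The call threshold was 0.05 after Benjamini-Hochberg adjustment. DESeq2 1.42.0 was an alternative. No doublet caller was run and no doublets were removed; leaving out cells with UMIs of at least 3 markers of other cell types was an alternative. Intervals are exact at 95%. The VQ bone marrow libraries were not 1 library deposited again: over 9020 genes the chi-square per degree of freedom between them was 1.57 (p = 1.77e-235, asymptotic), and both were counted as samples.

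The scripts were tested on simulated data, with changes set in genes of at least 5 expected UMIs. For VQ bone marrow against wild type, 13 of 100 2-fold and 65 of 100 4-fold changes were called, and 2 of 80 calls were false. For VQ lymph node against VQ bone marrow these were 59 and 98 of 100, and 11 of 168 calls were false. Most 2-fold differences from wild type would thus be missed. Named genes were the 10 large and 6 small subunit genes with the largest change among those called, every gene called lower, the 4 most abundant genes not called, the called genes of the second contrast, the most abundant gene of each group and up to 3 called genes per direction in other lists. The 3′ ends of 2 genes overlap an exon of another gene on the same strand and those of 9 on the opposite strand (last 500 bases). Only protein-coding and long non-coding genes were searched for this, so pseudogenes and small RNAs were left out. The last 200 bases of Mrpl22 and Mrpl23 match a processed pseudogene at 95% identity over at least 100 bases (blastn 2.17.0+). RefSeq promoter windows were scanned for exact motif letters. Alternatives tried were other scaling, filters, tools, cell limits and leaving out each VQ bone marrow library.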

Additional observations from a re-analysis of the deposited data

How the results depend on the processing

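Over 12 alternative settings, 426 of 509 values of the 23 named genes kept their side of the threshold, 74 were weaker and 9 stronger. The 509 values pool both contrasts. In lymph node against bone marrow only 2 of the 23 genes were called, so most values there had no call to lose. The total therefore overstates how stable the calls against wild type were. Of 92 values without 1 VQ bone marrow library, 15 moved; with 1 library per group these have no test. The sign changed in 20 and 7 of these values, all of genes not called in lymph node against bone marrow, and in 0 called values. Every median below was above that of all tested genes, and each covers only the genes that passed the low-count filter in its setting. In VQ bone marrow against wild type, 16 large and 7 small subunit genes were called. Calls with DESeq2 were 1 and 0 (5.75% of all genes), and with a preset coefficient of variation of 0.2 they were 5 and 3 (19.5%). Without cells with a proliferation UMI (15.4% of 2752 genes) or with sums thinned to 162471 UMIs (0 of 4890 genes called) they were 0 and 0. Genes that failed the low-count filter in either of these settings were not retested. Small subunit calls were 13 with Jchain kept (34.5% of all genes) and 4 with at least 10 UMIs in every library (32.7%), a filter that removes genes low in wild type. Mrpl57 had adjusted p of 2.56e-08 to 0.0159 in 10 settings, and 0.0566 without proliferation UMIs and 0.0879 thinned.

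The large subunit median log2 fold change was 0.80 with totals without Jchain, 1.12 with Jchain kept (all genes 0.56), 0.71 with DESeq2, 0.81 with no filter, 0.93 with at least 10 UMIs, 0.78 with the preset coefficient, 0.79 with a Jchain limit of 10%, 0.69 with no limit, 0.81 in cells of at least 1000 UMIs, 0.78 without cells of other markers, 0.24 without proliferation UMIs, 0.43 thinned, and 0.726 to 0.734 without 1 library. The small subunit median was 0.86 with totals without Jchain, 1.18 with Jchain kept, 0.76 with DESeq2, 0.80 with no filter, 0.42 with at least 10 UMIs, 0.86 with the limit of 10%, 0.64 with no limit, 0.95 in cells of at least 1000 UMIs, 0.14 without proliferation UMIs, 0.48 thinned, and 0.793 to 0.833 without 1 library.

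In lymph node against bone marrow, the 2 large subunit calls became 0 with DESeq2, at least 10 UMIs, the preset coefficient, no proliferation UMIs or thinning, and 1 (Mrpl37) with a Jchain limit of 10% or at least 1000 UMIs. The large subunit median was 0.0634 and 0.0644 with totals without and with Jchain, 0.13 with no filter, 0.38 without proliferation UMIs, and 0.0543 to 0.0921 without 1 library; the small subunit median was 0.15 without proliferation UMIs and 0.0488 to 0.132 without 1 library. Lymph node genes at least 2-fold from wild type were 8 large subunit genes without proliferation UMIs, and 16 (Jchain kept), 14 (no filter), 4 (at least 10 UMIs) and 3 (no proliferation UMIs) small subunit genes. Without proliferation UMIs, large subunit shares were 0.469%, 0.532% and 0.573% and small subunit shares 0.209%, 0.217% and 0.221% in the VQ libraries. The causes were not tested. No paired analysis was possible because only VQ bone marrow carries replicate numbers. The single wild-type library and its 162471 UMIs limit every comparison with it: 22 of 47 large and 14 of 26 small subunit genes had under 10 wild-type UMIs.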
